A study of Mus musculus with 12 samples.

Results

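The genes described here make the prostanoids and leukotrienes, lipid signals that macrophages build from arachidonic acid. They are 10 of the 54532 genes in the deposited table, taken by symbol: Pla2g4a, Ptgs1, Ptgs2, Ptges, Hpgds, Tbxas1, Alox5, Alox5ap, Lta4h and Ltc4s. Each has 1 row, and all 10 were among the 14286 genes with enough counts to test. Reads were counted per gene in 12 RNA libraries, 3 in each of 4 groups, of murine macrophages grown from bone marrow of 8-week-old mice in 10 ng/ml M-CSF, the growth factor of macrophages. The groups were Lyz2-Cre-Hdac3f/f cells given 500 ng/ml LPS for 4 h, Lyz2-Cre-Hdac3f/f cells kept 4 h in medium, Hdac3f/f cells given the same LPS, and Hdac3f/f cells kept in medium. Both genotypes carry loxP sites in Hdac3, the gene of histone deacetylase 3, and Lyz2-Cre-Hdac3f/f animals also make Cre recombinase from the Lyz2 locus, which is active in myeloid cells. LPS (lipopolysaccharide) is the bacterial cell wall lipid sensed by Toll-like receptor 4. The libraries are called Lyz2-Cre and Hdac3f/f libraries below. The labels do not say whether the 3 libraries of a group came from separate animals, so each p-value measures the spread between these libraries only.

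As background, cytosolic phospholipase A2 frees arachidonic acid from membranes, and the acid then enters either of a pair of branches. The cyclooxygenases Ptgs1 and Ptgs2 turn it into prostaglandin H2, which terminal synthases convert further: Ptges to prostaglandin E2, Hpgds to prostaglandin D2 and Tbxas1 to thromboxane A2. In the other branch 5-lipoxygenase (Alox5), helped by its activating protein Alox5ap, makes leukotriene A4, from which Lta4h makes leukotriene B4 and Ltc4s makes leukotriene C4. Macrophages make products of both branches, and Ptgs2 and Ptges are classical LPS-inducible genes of these cells.

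Totals ran from 16553432 to 18706990 counts per library. Levels below are in CPM, a gene's counts relative to its library's total, with the total scaled by TMM, a correction for composition, and called means an adjusted p under 0.05 in edgeR's quasi-likelihood test with Benjamini-Hochberg adjustment over all tested genes. Hdac3 itself was at 34.4 to 38.8 CPM in LPS-treated and 33.1 to 36.6 CPM in untreated Lyz2-Cre libraries, against 38.6 to 40.7 CPM in LPS-treated and 36.2 to 39.6 CPM in untreated Hdac3f/f libraries. Its counts per gene did not pass the test between genotypes (log2 fold change -0.14 ± 0.09 SE without LPS, adjusted p = 0.352). These counts cover the whole gene and cannot show loss of a few exons. The deletion was therefore not checked here, and the genotypes are taken from the labels. Lyz2, the locus that drives Cre, was at 6085, 6244 and 7721 CPM in LPS-treated and at 31.0, 5176 and 5632 CPM in untreated Lyz2-Cre libraries, against 9310 to 12340 CPM over the Hdac3f/f libraries. Replicate 1 of the untreated Lyz2-Cre libraries thus stands apart in Lyz2, and the cause was not tested. That library also had the highest megakaryocyte and platelet marker sum of its group (318 CPM, against 91.8 and 81.7 CPM). In replicate 1 of the LPS-treated Lyz2-Cre libraries this sum was 315 CPM, with Lyz2 at 6085 CPM. The neutrophil marker sum of the untreated replicate 1 was the lowest of its group (56.0 CPM, against 160 and 147 CPM). The part of those cells in the levels of the members in that library was not tested. The 8 macrophage markers, none at 0 in any library, summed to 11480 to 11760 CPM in LPS-treated and 5725 to 6258 CPM in untreated Lyz2-Cre libraries, and to 10452 to 10736 CPM in LPS-treated and 5164 to 5824 CPM in untreated Hdac3f/f libraries. The 7 markers of stromal and endothelial cells summed to 47.9 to 53.2 CPM in LPS-treated and 42.7 to 200.2 CPM in untreated Lyz2-Cre libraries, against 788 to 1647 CPM in LPS-treated and 289 to 1377 CPM in untreated Hdac3f/f libraries, and replicate 1 held the highest sum of the untreated Hdac3f/f libraries.

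Promoter sequences are shown for the 3 members at the ends of the LPS response in both genotypes: Ptgs2 and Ptges, which rose most, and Ptgs1, which fell most. Each runs 5′ to 3′ on the gene's own strand, from 250 bases before the RefSeq start to 50 bases from the start on, in GRCm38.p6 (mm10). Capitals mark matches, on either strand, to short motifs of factors known from macrophages.
Ptgs2, chr1:150099781-150100080, plus strand: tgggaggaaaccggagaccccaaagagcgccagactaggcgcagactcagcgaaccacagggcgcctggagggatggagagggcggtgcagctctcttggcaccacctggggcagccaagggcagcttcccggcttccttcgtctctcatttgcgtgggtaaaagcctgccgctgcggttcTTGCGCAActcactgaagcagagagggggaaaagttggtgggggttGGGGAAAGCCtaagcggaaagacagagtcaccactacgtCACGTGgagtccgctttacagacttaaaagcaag
Ptges, chr2:30903248-30903547, minus strand: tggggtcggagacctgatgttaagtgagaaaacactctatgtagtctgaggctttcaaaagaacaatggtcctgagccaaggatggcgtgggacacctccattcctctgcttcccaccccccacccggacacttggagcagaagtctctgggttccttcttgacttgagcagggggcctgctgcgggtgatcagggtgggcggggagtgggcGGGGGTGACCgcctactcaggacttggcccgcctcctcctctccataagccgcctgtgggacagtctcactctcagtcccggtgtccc
Ptgs1, chr2:36230176-36230475, plus strand: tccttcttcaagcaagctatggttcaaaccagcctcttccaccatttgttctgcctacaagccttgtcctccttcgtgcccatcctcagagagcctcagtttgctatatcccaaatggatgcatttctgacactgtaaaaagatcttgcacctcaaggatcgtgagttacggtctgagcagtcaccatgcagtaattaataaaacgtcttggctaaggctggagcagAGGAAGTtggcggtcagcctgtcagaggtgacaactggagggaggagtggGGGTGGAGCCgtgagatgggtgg
The window of Ptgs2 held the NF-kB pattern (GGG, any 5 bases, then CC) as GGGGAAAGCC at position -23, the C/EBP pattern TTNNGCAA as TTGCGCAA at position -69 and the E-box CACGTG at position 17, counting the start as 1 and the base before it as -1. Ptges held the NF-kB pattern as GGGGGTGACC at -38. Ptgs1, which fell with LPS, held it too, as GGGTGGAGCC at 28, and the PU.1 pattern AGGAAGT at -23. Among all 32851 RefSeq windows of this length, 50.8% held the NF-kB pattern, 10.8% the C/EBP pattern, 7.15% the E-box and 9.35% the PU.1 pattern. The patterns CRE (TGACGTCA, in 1.79% of windows), AP-1 (TGANTCA, 7.81%) and TATA box (TATAAA, 13.6%) had no match in these 3 windows. A match to letters this short describes the sequence and shows no bound site. The RefSeq start of Ptges lies 26566 bases inside the 5′ end of the gene as deposited.

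In the deposited mm10 coordinates Pla2g4a (chr1:149829618-149961290, minus strand) and Ptgs2 (chr1:150100031-150108227, plus strand) are near neighbours, with a gap of 138740 bases that holds 3 other genes, Ptgs2os, Gm44329 and Gm19136. Ptgs1 (chr2:36230426-36252272, plus) and Ptges (chr2:30889471-30929863, minus) share chromosome 2. Hpgds (chr6:65117293-65144908, minus), Tbxas1 (chr6:38875404-39084585, plus) and Alox5 (chr6:116410077-116461178, minus) share chromosome 6. Alox5ap lies at chr5:149264767-149288153 (plus), Lta4h at chr10:93453411-93484875 (plus) and Ltc4s at chr11:50236461-50238616 (minus). Tbxas1 overlaps Hipk2, a kinase gene on the opposite strand with up to 2519 counts in a library. Whether strand was used in counting is not given in the sources used here, so reads from their shared stretch cannot be told apart.

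With LPS, the phospholipase, Ptgs2 and Ptges rose in both genotypes while Ptgs1, Hpgds, Tbxas1, Alox5ap and Lta4h fell. In Lyz2-Cre cells 3 of the 10 members rose and 5 fell, where 25.2% of all tested genes rose and 27.7% fell (52.9% called in all). In Hdac3f/f cells the counts were also 3 and 5, against 28.0% and 32.1% of tested genes (60.1% called in all). These are the same 8 genes in both genotypes, and the other two, Alox5 and Ltc4s, were not called in either. LPS-treated and untreated libraries did not overlap for 8 members in Lyz2-Cre cells, against 65.8% of tested genes, and for 9 members in Hdac3f/f cells, against 61.4%. The median log2 fold change of the members was -0.84 in Lyz2-Cre and -1.04 in Hdac3f/f cells, against -0.08 over all tested genes in each. Scaling by library totals in place of TMM moved the median of all genes by -0.39 in Lyz2-Cre and -0.64 in Hdac3f/f cells. All genes then split into 2114 higher and 6462 lower in Lyz2-Cre cells (3606 and 3958 under TMM), and into 2086 and 8239 in Hdac3f/f cells (3993 and 4591 under TMM). The direction of the 8 called members was the same under both scalings. In bulk RNA, fewer cells of a type and less RNA per cell cannot be told apart.

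**Figure D1:**
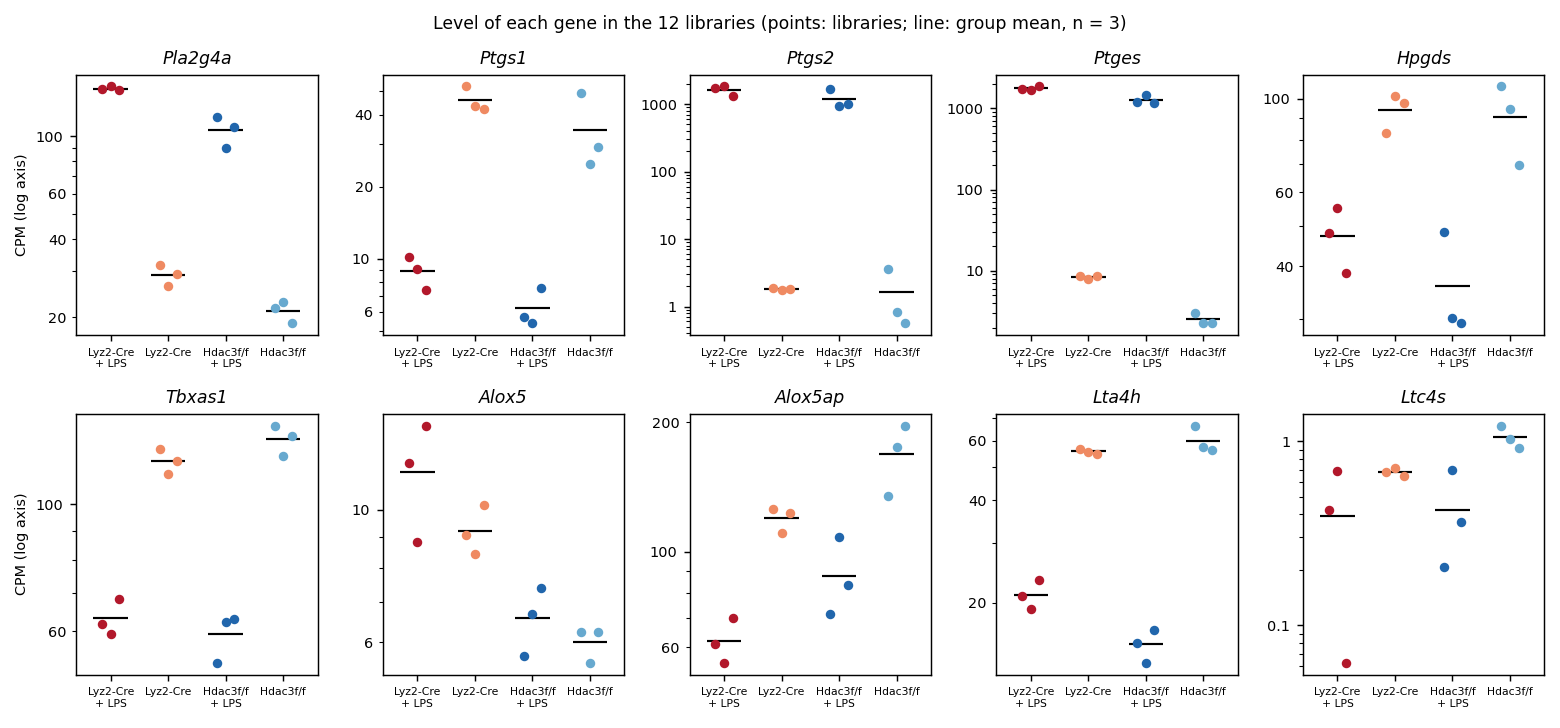
Level of each of the 10 genes in CPM (log axis) in the 12 libraries, with LPS-treated Lyz2-Cre, untreated Lyz2-Cre, LPS-treated Hdac3f/f and untreated Hdac3f/f libraries from left to right. Points are libraries and lines are group means (n = 3). The panels of Ptgs2 and Ptges span the widest range of the panels between treated and untreated libraries, while Alox5 separates by genotype more than by treatment.

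Pla2g4a, the cytosolic phospholipase A2 that supplies arachidonic acid, was at 152, 156 and 150.2 CPM in LPS-treated Lyz2-Cre libraries, against 31.7, 26.3 and 29.4 CPM in untreated ones. Hdac3f/f libraries had 118, 89.6 and 109 CPM with LPS and 21.6, 23.0 and 18.9 CPM without. Every LPS-treated library lay above every untreated one, and within each treatment every Lyz2-Cre library lay above every Hdac3f/f library. The log2 fold change with LPS was 2.39 ± 0.12 (SE) in Lyz2-Cre cells (adjusted p = 6.27e-09) and 2.32 ± 0.12 in Hdac3f/f cells (adjusted p = 5.01e-09).

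The pair of cyclooxygenases moved in opposite directions. Ptgs2, the inducible enzyme, was at 1725, 1829 and 1332 CPM in LPS-treated Lyz2-Cre libraries, against 1.89, 1.78 and 1.79 CPM (39, 40 and 36 counts) in untreated ones. The Hdac3f/f levels were 1661, 952 and 999 CPM with LPS and 3.55, 0.827 and 0.562 CPM (82, 17 and 11 counts) without. It had the largest fold change of the 10 members in both genotypes, 9.80 ± 0.52 on the log2 scale in Lyz2-Cre cells (adjusted p = 8.25e-09) and 9.46 ± 0.52 in Hdac3f/f cells (adjusted p = 6.16e-09). The untreated level in Hdac3f/f cells was highest in replicate 1, the library with the highest stromal and endothelial sum of its group. That library also had the highest neutrophil marker sum (382 CPM, against 218 and 265 CPM in the other untreated Hdac3f/f libraries) and the highest lymphocyte marker sum (343 CPM, against 198 and 196 CPM). The part of those cells in its Ptgs2 level was not tested. Without it, the log2 fold change in Hdac3f/f cells was 10.74, and leaving out any other library gave 9.07 to 9.61.

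Ptgs1, the enzyme usually called constitutive, was at 10.1, 9.06 and 7.39 CPM in LPS-treated and 52.4, 43.6 and 42.3 CPM in untreated Lyz2-Cre libraries. In Hdac3f/f cells it was at 5.69, 5.37 and 7.54 CPM with LPS and at 49.2, 24.8 and 29.2 CPM without. It fell by 2.38 ± 0.24 on the log2 scale in Lyz2-Cre cells (adjusted p = 2.76e-06) and by 2.47 ± 0.25 in Hdac3f/f cells (adjusted p = 1.84e-06). No LPS-treated library reached an untreated one, and replicate 1 was again the highest untreated Hdac3f/f library.

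Per kilobase of gene length, Ptgs2 made up 99.3, 99.4 and 99.3% of the cyclooxygenase transcripts in LPS-treated Lyz2-Cre libraries, against 2.97, 3.34 and 3.46% in untreated ones. In Hdac3f/f cells the share was 99.6, 99.3 and 99.1% with LPS and 5.77, 2.74 and 1.60% without. The difference was 96.1 percentage points in Lyz2-Cre and 96.0 in Hdac3f/f cells, each with an exact two-sided permutation p of 0.1, the smallest that 3 against 3 libraries can give (0.2 after adjustment over 4 comparisons). Between genotypes the share differed by 0.00888 percentage points with LPS (99.4 ± 0.0541% in Lyz2-Cre and 99.4 ± 0.240% in Hdac3f/f cells, SD, n = 3 each, exact permutation p = 0.9). Without LPS the difference was -0.115 points (3.26 ± 0.255% in Lyz2-Cre and 3.37 ± 2.15% in Hdac3f/f cells, exact permutation p = 1.0). Both genotype differences changed sign when 1 library was left out, running from -0.108 to 0.132 points with LPS and from -0.998 to 1.08 points without.

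**Figure D2:**
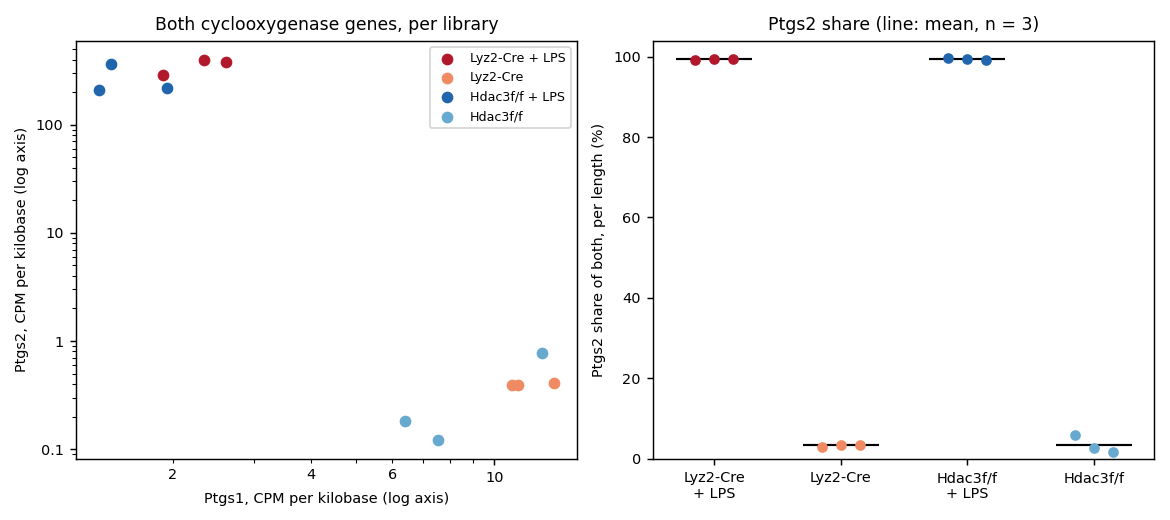
Left, Ptgs2 against Ptgs1 in CPM per kilobase (both axes log) for the 12 libraries. Right, the share of Ptgs2 in the sum of both, with lines at the group means (n = 3). The 6 LPS-treated libraries sit at upper left with shares from 99.1% to 99.6%, and the 6 untreated ones at lower right with shares from 1.60% to 5.77%.

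Of the terminal synthases, Ptges, microsomal prostaglandin E synthase 1, rose and the other two fell. Ptges was at 1746, 1694 and 1872 CPM in LPS-treated and 8.54, 8.00 and 8.75 CPM in untreated Lyz2-Cre libraries, and at 1206, 1467 and 1154 CPM in LPS-treated and 3.03, 2.29 and 2.25 CPM in untreated Hdac3f/f libraries. Its log2 fold change with LPS was 7.71 ± 0.16 in Lyz2-Cre cells (adjusted p = 1.41e-11) and 8.97 ± 0.17 in Hdac3f/f cells (adjusted p = 4.65e-12). Within each treatment all 3 Lyz2-Cre libraries lay above all 3 Hdac3f/f libraries.

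Hpgds, hematopoietic prostaglandin D synthase, was at 48.1, 55.1 and 38.7 CPM in LPS-treated Lyz2-Cre libraries, against 83.0, 102 and 97.7 CPM in untreated ones. Hdac3f/f libraries had 48.2, 30.2 and 29.3 CPM with LPS and 107, 94.6 and 69.8 CPM without. It fell by 0.99 ± 0.21 on the log2 scale in Lyz2-Cre cells (adjusted p = 0.00132) and by 1.33 ± 0.21 in Hdac3f/f cells (adjusted p = 0.000112). The groups did not overlap by treatment and did by genotype.

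Tbxas1, thromboxane A synthase, was at 61.8, 59.5 and 68.5 CPM in LPS-treated Lyz2-Cre libraries, against 125, 113 and 119 CPM in untreated ones. The Hdac3f/f levels were 52.9, 62.3 and 63.1 CPM with LPS and 137, 122 and 132 CPM without. The spread within groups was small beside the step between treatments. It fell by 0.91 ± 0.10 on the log2 scale in Lyz2-Cre cells (adjusted p = 6.4e-06) and by 1.13 ± 0.10 in Hdac3f/f cells (adjusted p = 6.39e-07).

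In the leukotriene branch no member was called higher with LPS when all libraries were fitted. Lta4h, leukotriene A4 hydrolase, was at 20.99, 19.1 and 23.2 CPM in LPS-treated and 56.7, 55.6 and 54.8 CPM in untreated Lyz2-Cre libraries, and at 15.2, 13.3 and 16.7 CPM in LPS-treated and 66.3, 57.4 and 56.1 CPM in untreated Hdac3f/f libraries. It fell by 1.40 ± 0.12 on the log2 scale in Lyz2-Cre cells (adjusted p = 4.57e-07) and by 1.99 ± 0.12 in Hdac3f/f cells (adjusted p = 1.4e-08). With LPS all Lyz2-Cre libraries lay above all Hdac3f/f libraries, and without LPS the genotypes overlapped.

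Alox5ap, the membrane protein that presents arachidonic acid to 5-lipoxygenase, was at 61.1, 55.2 and 70.0 CPM in LPS-treated Lyz2-Cre libraries, against 126, 111 and 123 CPM in untreated ones. In Hdac3f/f cells it was at 71.8, 108 and 83.7 CPM with LPS and at 134, 175 and 196 CPM without. It fell by 0.95 ± 0.17 on the log2 scale in Lyz2-Cre cells (adjusted p = 0.000339) and by 0.94 ± 0.16 in Hdac3f/f cells (adjusted p = 0.000268). It was the one member whose Lyz2-Cre libraries lay below all Hdac3f/f libraries in both treatments.

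Alox5, the 5-lipoxygenase itself, was at 12, 8.83 and 13.8 CPM in LPS-treated and 9.08, 8.44 and 10.2 CPM in untreated Lyz2-Cre libraries, and at 5.69, 6.70 and 7.40 CPM in LPS-treated and 6.24, 5.54 and 6.23 CPM in untreated Hdac3f/f libraries. Treated and untreated libraries overlapped in both genotypes, whereas the genotypes did not overlap in either treatment. The LPS log2 fold change was 0.32 ± 0.17 in Lyz2-Cre cells (95% interval -0.05 to 0.70, adjusted p = 0.134) and 0.13 ± 0.18 in Hdac3f/f cells (interval -0.26 to 0.53, adjusted p = 0.547). The sign turned with the scaling: by library totals it was -0.07 in Lyz2-Cre and -0.51 in Hdac3f/f cells, the last being called (adjusted p = 0.0198). Without replicate 2 of LPS-treated Lyz2-Cre, Alox5 was called higher with LPS in Lyz2-Cre cells (0.48, adjusted p = 0.0289).

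Ltc4s, leukotriene C4 synthase, was near the detection limit. It had 7, 12 and 1 counts (0.422, 0.693 and 0.0627 CPM) in LPS-treated and 14, 16 and 13 counts (0.680, 0.711 and 0.646 CPM) in untreated Lyz2-Cre libraries. In Hdac3f/f cells it had 3, 9 and 5 counts (0.208, 0.701 and 0.363 CPM) with LPS and 28, 21 and 18 counts (1.21, 1.02 and 0.920 CPM) without. The LPS log2 fold change was -0.76 ± 0.55 in Lyz2-Cre cells (adjusted p = 0.265) and -1.32 ± 0.55 in Hdac3f/f cells (95% interval -2.51 to -0.13, adjusted p = 0.0531). Neither difference was called, though the treated libraries all lay below the untreated ones in Hdac3f/f cells and 8 of the alternative settings called it there (adjusted p = 0.00660 to 0.0479).

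Set side by side per kilobase of gene length, the order of the members differed between treated and untreated cells. In LPS-treated Lyz2-Cre cells Ptges came first with a mean of 450.4 CPM per kilobase, before Ptgs2 (356), Alox5ap (43.7), Pla2g4a (23.9), Hpgds (7.36), Tbxas1 (6.95), Lta4h (3.46), Alox5 (2.82), Ptgs1 (2.28) and Ltc4s (0.387). The libraries overlapped between Hpgds and Tbxas1, between Lta4h and Alox5 and between Alox5 and Ptgs1. Untreated Lyz2-Cre cells had Alox5ap first (84.4 CPM per kilobase), then Hpgds (14.6), Tbxas1 (13.1), Ptgs1 (11.9), Lta4h (9.13), Pla2g4a (4.56), Alox5 (2.25), Ptges (2.14), Ltc4s (0.670) and Ptgs2 (0.397), with overlap between Hpgds and Tbxas1, Tbxas1 and Ptgs1, and Alox5 and Ptges. In Hdac3f/f cells Ptges (325) and Ptgs2 (263) again led with LPS, though their libraries overlapped, and Alox5ap (61.8), Pla2g4a (16.5), Tbxas1 (6.53), Hpgds (5.59), Lta4h (2.47), Alox5 (1.61), Ptgs1 (1.60) and Ltc4s (0.418) followed, with overlap between Tbxas1 and Hpgds and between Alox5 and Ptgs1. Untreated Hdac3f/f cells had Alox5ap first (119), then Tbxas1 (14.3), Hpgds (14.1), Lta4h (9.83) and Ptgs1 (8.87). Tbxas1 overlapped Hpgds, Hpgds overlapped Lta4h and Lta4h overlapped Ptgs1. Pla2g4a (3.31), Alox5 (1.46) and Ltc4s (1.04) followed without overlap. The order in untreated Hdac3f/f cells ended with Ptges (0.642) and Ptgs2 (0.360), which overlapped too.

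Between genotypes the differences were smaller. Without LPS, 3 of the 10 members were higher in Lyz2-Cre than in Hdac3f/f cells (Ptges, Alox5 and Pla2g4a) and none was called lower, where 5.13% of tested genes were higher and 6.66% lower (11.8% called in all). The libraries of the 2 genotypes did not overlap for 5 members, 3 above and 2 below, against 36.5% of tested genes. With LPS, 4 members were higher in Lyz2-Cre cells (Ptges, Alox5, Lta4h and Pla2g4a) and 1 was lower (Alox5ap), where 15.7% of tested genes were higher and 16.9% lower (32.6% called in all). Again 5 members did not overlap, against 43.2% of tested genes. The median log2 fold change of the members was 0.08 without and 0.45 with LPS, against 0.03 and 0.02 over all tested genes. Scaled by library totals, 6 members were called higher and none lower with LPS, and all tested genes split into 4462 higher and 1329 lower, against 2243 and 2413 under TMM.

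**Figure D3:**
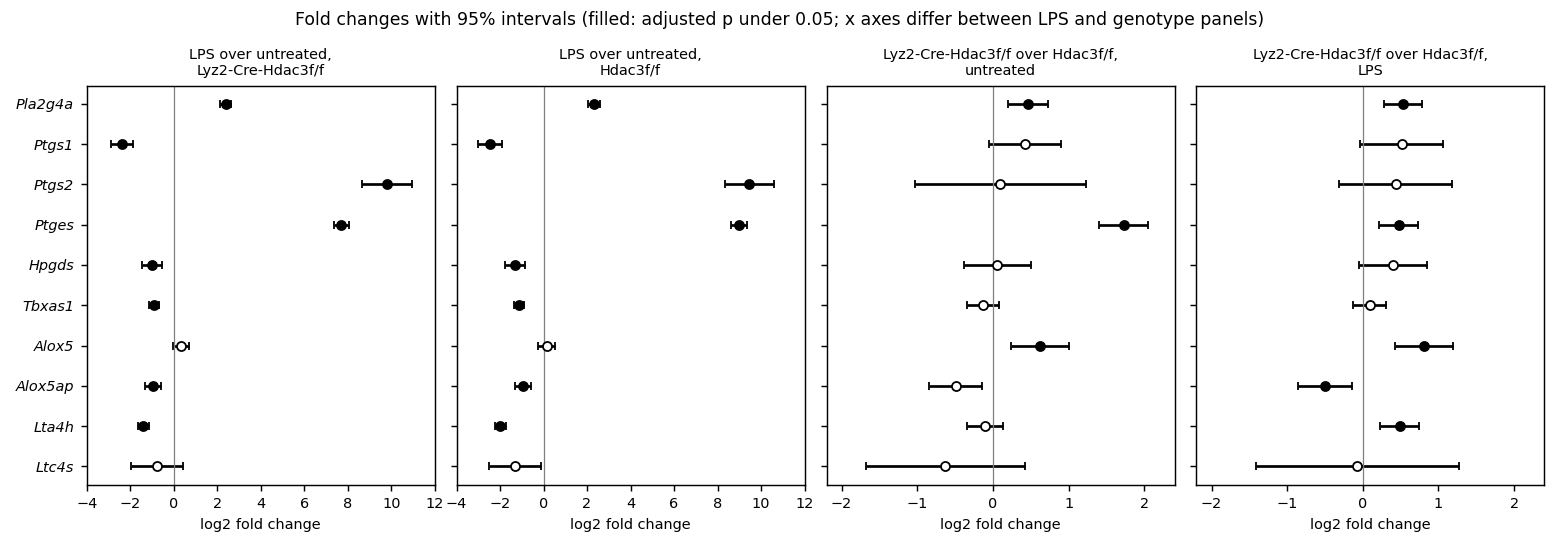
Log2 fold changes of the 10 genes with 95% intervals from the edgeR fit over all 12 libraries, in 4 panels: LPS over untreated in each genotype, then Lyz2-Cre-Hdac3f/f over Hdac3f/f without and with LPS. Filled points had an adjusted p under 0.05, and the horizontal scale differs between the LPS and the genotype panels. In the genotype panels Ptges without LPS lies farthest to the right (1.73), and Alox5ap lies left of 0 in both (-0.49 and -0.50).

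Ptges had the largest fold difference between untreated genotypes. Its level was 8.43 ± 0.387 CPM in untreated Lyz2-Cre and 2.52 ± 0.443 CPM in untreated Hdac3f/f cells (SD, n = 3 each), a log2 fold change of 1.73 ± 0.15 (adjusted p = 4.37e-05). With LPS it was 1771 ± 91.4 CPM in Lyz2-Cre and 1276 ± 168 CPM in Hdac3f/f cells, a log2 fold change of 0.47 ± 0.12 (adjusted p = 0.0105). The LPS response was smaller on the log2 scale in Lyz2-Cre than in Hdac3f/f cells (difference -1.26 ± 0.19, 95% interval -1.67 to -0.84, adjusted p = 0.00248), while both the untreated and the treated level were higher. Pla2g4a was higher by 0.46 ± 0.12 without LPS (adjusted p = 0.0285) and by 0.53 ± 0.12 with LPS (adjusted p = 0.00529).

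In the leukotriene branch Alox5 was higher in Lyz2-Cre cells by 0.62 ± 0.18 without LPS (adjusted p = 0.0388) and by 0.81 ± 0.18 with LPS (adjusted p = 0.00548). Alox5ap went the other way, at 119.8 ± 8.08 CPM in untreated Lyz2-Cre and 168 ± 31.4 CPM in untreated Hdac3f/f cells (log2 fold change -0.49 ± 0.16, adjusted p = 0.0703, not called). Of the alternative settings, 7 called this difference lower (adjusted p = 0.00757 to 0.0497), among them library totals, no filter, DESeq2's test and the fits without replicate 1 or 2 of LPS-treated Hdac3f/f. With LPS it was at 62.1 ± 7.44 CPM in Lyz2-Cre and 87.8 ± 18.4 CPM in Hdac3f/f cells (-0.50 ± 0.17, adjusted p = 0.0357). Lta4h was higher in LPS-treated Lyz2-Cre cells, 21.1 ± 2.07 against 15.1 ± 1.68 CPM in LPS-treated Hdac3f/f cells (0.49 ± 0.12, adjusted p = 0.0091), and not called without LPS (-0.11 ± 0.11, adjusted p = 0.557). The LPS response of Lta4h thus differed by 0.59 ± 0.16 (95% interval 0.24 to 0.94, adjusted p = 0.0433), a smaller fall in Lyz2-Cre cells.

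The cyclooxygenases were not called between genotypes in the fit of all libraries under TMM. Ptgs1 differed by 0.42 ± 0.22 without LPS (95% interval -0.06 to 0.90) and by 0.51 ± 0.25 with LPS (interval -0.03 to 1.06), and Ptgs2 by 0.10 ± 0.52 (interval -1.04 to 1.23) and 0.44 ± 0.34 (interval -0.31 to 1.18). Hpgds differed by 0.06 ± 0.20 without LPS (interval -0.38 to 0.50) and by 0.40 ± 0.21 with LPS (interval -0.06 to 0.85). The intervals of Tbxas1 were narrow, -0.34 to 0.09 without and -0.13 to 0.31 with LPS. Ltc4s differed by -0.63 ± 0.49 without and -0.07 ± 0.62 with LPS. Among the 10 members, Ptges and Lta4h alone were called for a difference in LPS response in that fit, 1 lower and 1 higher. Of tested genes 2.58% were higher and 5.54% lower (8.12% called in all). In edgeR under library totals, Tbxas1 was called too for the response difference (0.48, adjusted p = 0.0339). Under that scaling Tbxas1 (0.36, adjusted p = 0.00929) and Ptgs1 (0.79, adjusted p = 0.0408) were also called higher in LPS-treated Lyz2-Cre than in LPS-treated Hdac3f/f cells.

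Single libraries decided several of the genotype calls. Without replicate 1 of untreated Hdac3f/f, 6 members were called between untreated cells, adding Ptgs1 (0.77, adjusted p = 0.0116), Ptgs2 (1.38, adjusted p = 0.0375) and Alox5ap (-0.63, adjusted p = 0.0186). Without replicate 1 or 3 of untreated Lyz2-Cre or replicate 2 or 3 of untreated Hdac3f/f, Ptges alone was called. The number of all tested genes called between untreated cells moved too. It ran from 775 to 2545 over the 12 fits that each left out 1 library (1685 with all libraries). The untreated call of Alox5 was also lost without replicate 2 of untreated or replicate 1 of LPS-treated Lyz2-Cre, with upper quartile factors (adjusted p = 0.0524) and with no filter (adjusted p = 0.0502), and that of Pla2g4a under library totals (adjusted p = 0.0575). With LPS, the call of Alox5ap was lost without replicate 1 or 2 of Lyz2-Cre or replicate 2 or 3 of Hdac3f/f (adjusted p = 0.0711 to 0.162) and under library totals (-0.22, adjusted p = 0.184). Without replicate 1 of LPS-treated Hdac3f/f, Hpgds was called higher in LPS-treated Lyz2-Cre cells (0.66, adjusted p = 0.0163), and without replicate 1 of untreated Hdac3f/f so was Ptgs1 (adjusted p = 0.0357). The Lta4h difference in response stayed called in 3 of 12 fits that each left out 1 library (adjusted p = 0.0507 to 0.0959 where lost, counting other settings too).

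Markers of mast cells and basophils differed between genotypes too. Of 11 such markers 8 were tested, and 6 were higher and none lower in untreated Lyz2-Cre than in untreated Hdac3f/f cells, while 5 were higher and 1 (Hdc) lower with LPS. Their sum ran from 208 to 366 CPM in LPS-treated and 162 to 236 CPM in untreated Lyz2-Cre libraries, against 204 to 288 CPM in LPS-treated and 103 to 127 CPM in untreated Hdac3f/f libraries. Without Hdc, histidine decarboxylase, it ran from 182 to 324, 156 to 227, 136 to 189 and 99.3 to 123 CPM in the same order of groups. With or without Hdc, the sums of the genotypes overlapped in LPS-treated libraries and did not overlap in untreated ones. Of the defining mast cell proteases Tpsb2 was at 0 in all 4 groups, Cma1 in all but LPS-treated Hdac3f/f and Tpsab1 in both Hdac3f/f groups. Mcpt8, a basophil protease, was at 40.3, 30.3 and 49.3 CPM in LPS-treated and 37.1, 24.4 and 38.5 CPM in untreated Lyz2-Cre libraries, against 17.2, 20.8 and 23.6 CPM in LPS-treated and 15.04, 16.7 and 16.5 CPM in untreated Hdac3f/f libraries. Markers of other cell types moved in either direction. The 9 neutrophil markers summed to 56.0 to 160 CPM in untreated Lyz2-Cre and 218 to 382 CPM in untreated Hdac3f/f libraries. With LPS these sums overlapped. The 4 eosinophil markers summed, in the same order, to 9.51 to 11.5 against 22.2 to 27.9 CPM without LPS. With LPS they summed to 10.2 to 24.2 against 26.7 to 37.4 CPM. The 6 dendritic cell markers were at 10.5 to 19.3 against 4.50 to 6.07 CPM without LPS.

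Mcpt8, one of these markers, also ranked first when genes were ordered by correlation with Alox5 in these same libraries. Its likeness to Alox5 thus follows from that ranking and is no separate support. The ratio of Alox5 to Mcpt8 was 0.281 to 0.297 in LPS-treated and 0.245 to 0.345 in untreated Lyz2-Cre libraries. In Hdac3f/f libraries it was 0.314 to 0.331 with LPS and 0.331 to 0.415 without. With LPS the ratio was lower in every Lyz2-Cre than in every Hdac3f/f library. Of all tested genes that qualified, Mcpt8 had the highest correlation of log2 CPM with Alox5 (Pearson r = 0.962 over the 12 libraries, which share groups and scaling). The part of mast cells, basophils or other cell types in the genotype difference of Alox5 was not tested.

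**Figure D4:**
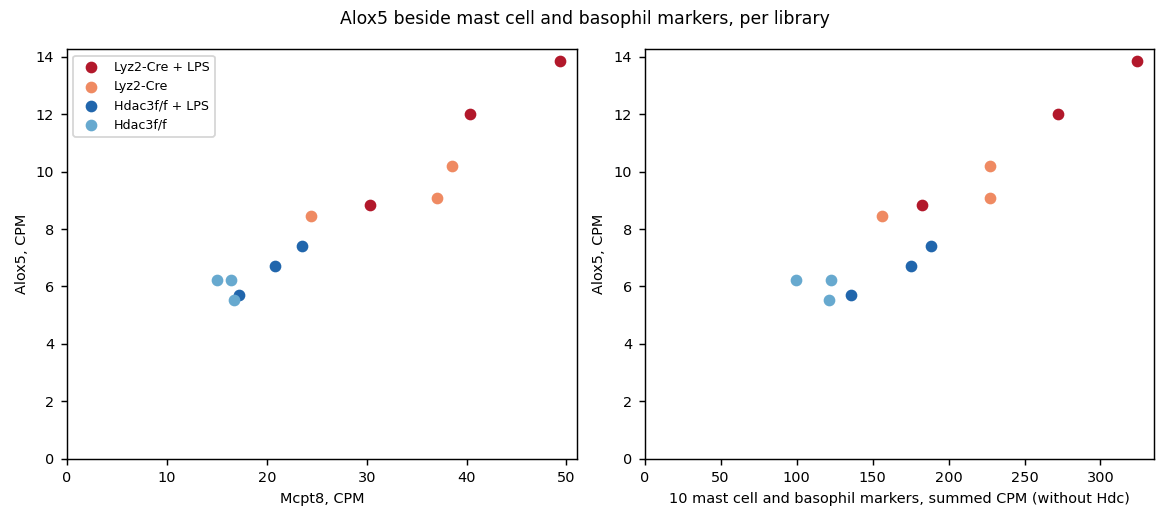
Alox5 in CPM against Mcpt8 in CPM (left) and against the summed CPM of 10 mast cell and basophil markers without Hdc (right), 1 point per library, coloured by group. Alox5 is highest in the LPS-treated Lyz2-Cre library with the most Mcpt8 (13.8 and 49.3 CPM), and the untreated Hdac3f/f libraries lie at the low end of both axes.

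Around these 10 genes, 59 other genes of eicosanoid metabolism were listed and 44 were tested. With LPS 12 rose and 14 fell in Lyz2-Cre cells and 13 rose and 18 fell in Hdac3f/f cells (10 and 22, and 9 and 25, when scaled by library totals). Of all tested genes, 25.2% rose and 27.7% fell in Lyz2-Cre cells and 28.0% rose and 32.1% fell in Hdac3f/f cells. The formyl peptide and lipoxin receptor Fpr2 had the largest rise of those named, by 4.24 ± 0.15 in Lyz2-Cre and 5.56 ± 0.16 on the log2 scale in Hdac3f/f cells. Abcc1, a leukotriene C4 exporter, rose by 2.38 ± 0.13 in Lyz2-Cre and 1.69 ± 0.13 in Hdac3f/f cells, and Lpcat2, which makes platelet-activating factor, by 1.57 ± 0.14 in Lyz2-Cre and 2.04 ± 0.14 in Hdac3f/f cells. Pla2g15, the lysosomal phospholipase A2, fell by 2.93 ± 0.14 in Lyz2-Cre and 2.44 ± 0.14 in Hdac3f/f cells, and Ptgr2, a prostaglandin reductase, by 1.89 ± 0.14 in Lyz2-Cre and 2.22 ± 0.14 in Hdac3f/f cells. Abcc4, a prostaglandin exporter, rose by 1.38 ± 0.13 in Lyz2-Cre and 1.33 ± 0.13 in Hdac3f/f cells. Pla2g16, a phospholipase, rose by 1.07 ± 0.16 in Lyz2-Cre and 3.04 ± 0.17 in Hdac3f/f cells, and the prostacyclin receptor Ptgir by 1.79 ± 0.18 in Lyz2-Cre and 2.42 ± 0.19 in Hdac3f/f cells. Cbr1 and Fam213b fell in both, Cbr1 by 1.07 ± 0.14 in Lyz2-Cre and 1.43 ± 0.14 in Hdac3f/f cells and Fam213b by 1.05 ± 0.16 in Lyz2-Cre and 1.13 ± 0.16 in Hdac3f/f cells.

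Between genotypes 7 of the 44 were higher and 8 lower in untreated Lyz2-Cre than in untreated Hdac3f/f cells, and 8 higher and 10 lower with LPS (15 and 7 by library totals). Of all tested genes, 5.13% were higher and 6.66% lower without LPS, and 15.7% higher and 16.9% lower with LPS. Ptger2, a prostaglandin E2 receptor, was at 32.4, 37.3 and 38.6 CPM in LPS-treated Lyz2-Cre libraries, against 16.3, 15.1 and 16.4 CPM in LPS-treated Hdac3f/f libraries. Without LPS it was at 48.1, 40.8 and 38.6 CPM in Lyz2-Cre and at 19.5, 19.985 and 24.1 CPM in Hdac3f/f libraries. The groups did not overlap in either treatment, and the log2 fold change was 1.18 ± 0.13 with LPS (adjusted p = 0.000106) and 1.00 ± 0.12 without (adjusted p = 0.000451). Ptger4, another prostaglandin E2 receptor, was lower without LPS (-0.58 ± 0.12, adjusted p = 0.00915). Also higher in untreated Lyz2-Cre cells were Fpr2 (1.54 ± 0.14), Alox15 (1.37 ± 0.32), a further lipoxygenase, and Lpcat2 (0.58 ± 0.14), and Mgst3 (-1.90 ± 0.25) and Mgll (-1.65 ± 0.23), monoacylglycerol lipase, were lower.

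With LPS, Abcc1 (0.76 ± 0.13), Acsl4 (0.81 ± 0.18), which activates arachidonic acid, and Ptgr2 (0.63 ± 0.14) were higher in Lyz2-Cre cells, and Pla2g16 (-1.33 ± 0.15) and Pla2g15 (-0.94 ± 0.14) were lower. Slco2a1, the prostaglandin uptake transporter, was at 0.362, 0.635 and 0.188 CPM in LPS-treated Lyz2-Cre libraries, against 4.10, 6.70 and 9.72 CPM in LPS-treated Hdac3f/f libraries (adjusted p = 0.000428). Dpep1, a dipeptidase that trims leukotriene D4, was at 0, 0.0577 and 0 CPM in LPS-treated Lyz2-Cre libraries, against 1.32, 3.50 and 3.70 CPM in LPS-treated Hdac3f/f libraries. Without LPS it was at 0, 0.0444 and 0.0497 CPM in Lyz2-Cre and at 2.25, 0.681 and 0.562 CPM in Hdac3f/f libraries. Of the 7 stromal and endothelial markers, 4 were lower and 1 higher in untreated Lyz2-Cre cells and 5 were lower with LPS, with sums of 47.9 to 53.2 CPM in LPS-treated Lyz2-Cre and 788 to 1647 CPM in LPS-treated Hdac3f/f libraries. The part of those cells in the differences of Slco2a1 and Dpep1 was not tested. The LPS response differed between genotypes for 6 of the 44: the difference was above 0 for Ptgr1 (1.10 ± 0.28) and Abcc1 (0.69 ± 0.18) and below 0 for Pla2g16 (-1.96 ± 0.22), Fpr2 (-1.31 ± 0.18), Slco2a1 (-3.53 ± 0.77) and Pla2g4c (-2.41 ± 0.56). Of all tested genes, 2.58% were called with a difference above 0 and 5.54% below 0 (8.12% in all).

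The authors' deposited table gives its own genotype comparisons, with log2 ratios of Hdac3f/f over Lyz2-Cre, the opposite sign. In the authors' deposited table, Ptges (-1.70, adjusted p = 3.81e-10), Alox5 (-0.59, adjusted p = 0.0284), Alox5ap (0.53, adjusted p = 0.00630) and Pla2g4a (-0.43, adjusted p = 0.0288) passed without LPS. With LPS, the authors' deposited table has Ptges (-0.46, adjusted p = 0.00873), Alox5 (-0.80, adjusted p = 0.00862), Alox5ap (0.51, adjusted p = 0.0300), Lta4h (-0.48, adjusted p = 0.0403) and Pla2g4a (-0.53, adjusted p = 0.00240) past the same threshold. Alox5ap without LPS is the one member called there and not in the edgeR fit.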

How the data were processed

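The deposited counts per gene are the authors' own, whole numbers for 54532 genes in 12 libraries. Per the submitters' processing notes, reads were aligned with TopHat2 to mm10, and the counting tool, annotation and strand setting are not given in the sources used here. The authors also deposited FPKM values, group means of a normalized signal, log2 fold changes and p-values for the genotype comparisons. Of these only the log2 values and adjusted p-values were used, and only where the authors' table is named.

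Counts were tested with edgeR 4.0.16 (R 4.3.3) in a quasi-likelihood model with a coefficient for each of the 4 groups. TMM factors ran from 0.716 to 1.26, and filterByExpr kept 14286 genes. The 5 contrasts were adjusted by Benjamini-Hochberg over all kept genes at 0.05. Replicates of a group differed by more than counting error (chi-square per gene 8.65 to 51.4). All 10 members are named. Other pathway genes are the 4 called genes of lowest p in each direction whose higher group averaged 1 CPM or more. The genes most alike each member are the 3 with the highest Pearson correlation among those of at least 5 CPM. The members, lists and tests were chosen with earlier results of these data known. Promoter windows are RefSeq's (GRCm38.p6), found for 9 of the 10 members, and Alox5ap is the one without. Positions matched GENCODE M21. The scripts were tested on simulated data. Alternatives used DESeq2 1.42.0, limma 3.58.1, other scalings, no filter, 2 groups alone, a replicate block, and leaving out each library.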

Additional observations from a re-analysis of the deposited data

Results flagged for a closer look

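Ptges was flagged because its response to LPS differed between genotypes in the test of the difference itself, by -1.26 ± 0.19 on the log2 scale (edgeR, adjusted p = 0.00248). Its level was higher in all 3 Lyz2-Cre than in all 3 Hdac3f/f libraries both with LPS (1771 ± 91.4 against 1276 ± 168 CPM) and without (8.43 ± 0.387 against 2.52 ± 0.443 CPM). Lta4h was flagged for the same reason, with a difference of 0.59 ± 0.16 (edgeR, adjusted p = 0.0433). Its LPS-treated level was higher in all 3 Lyz2-Cre than in all 3 Hdac3f/f libraries (21.1 ± 2.07 against 15.1 ± 1.68 CPM), and its untreated levels overlapped (55.7 ± 0.940 against 60.0 ± 5.57 CPM).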

How the results depend on the processing

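Of 26 called member results, 22 kept their call and direction under every alternative, none reversed, and Alox5 and Pla2g4a without LPS, Alox5ap with LPS and the Lta4h response difference lost it in some. Uncalled values changed sign as follows: Alox5 with LPS in Lyz2-Cre cells to -0.067 by library totals and in Hdac3f/f cells to -0.51 by library totals and -0.088 by upper quartile, Ltc4s between LPS-treated genotypes to 0.21 by library totals, and the response differences of Ptgs2 to -0.067 with limma-voom and of Alox5ap to 0.24 by library totals, 0.062 by upper quartile and 0.010 without a filter. Leaving out 1 library gave -0.29 to 1.38 for Ptgs2 and -0.10 to 0.20 for Hpgds between untreated genotypes and -0.76 to 0.47 for Ltc4s between LPS-treated genotypes. It gave response differences of -0.26 to 0.29 for Ptgs1, -0.94 to 0.73 for Ptgs2, -0.13 to 0.19 for Alox5ap, -0.13 to 1.12 for Ltc4s and -0.013 to 0.18 for Pla2g4a. Members called numbered 1 to 6 between untreated genotypes (3 with all libraries), 4 to 6 between LPS-treated genotypes and 1 to 2 for the response difference, and all genes called 775 to 2545, 2833 to 5992 and 563 to 2032 (1685, 4656 and 1160 with all libraries). For the response difference Lta4h lost its edgeR call with DESeq2's size factors (adjusted p = 0.0517) and without a filter (adjusted p = 0.0685). DESeq2's own test called 1792 genes for it, against 1160 in the main fit. Without division by length the Ptgs2 share differed by 95.6 points with LPS in Lyz2-Cre cells. The cause of these changes was not tested. Replicate numbers did not pair libraries (5 of 18 same-number pairs had a correlation above 0.1, range -0.40 to 0.22). With the numbers as a replicate block, 1886 genes were called between untreated genotypes, against 1685 without it. Of the member results, Ltc4s with LPS in Hdac3f/f cells alone changed its call, becoming called lower (-1.37, adjusted p = 0.0479). Depth limits Ltc4s, with 1 to 28 counts in a library.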

Other observations

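Across the 12 libraries, the genes whose log2 CPM was most like that of Ptgs2 were Zfp800, Nfkbiz and Il12b (Pearson r from 0.995 to 0.996), the last being a subunit of interleukin-12. Ptges was most like Orai2, Lrrc8c and Acsl1 (r from 0.997 to 0.998), and Pla2g4a most like Msr1, a scavenger receptor, Stard7 and Eif1a (r from 0.994 to 0.997). Among the genes that fell with LPS, Ptgs1 was most like Kif13b, Map3k4 and Manba (0.984 to 0.986), Hpgds like Usp48, Tmlhe and Lmbrd2 (0.982 to 0.986) and Tbxas1 like Tm7sf3, Rell1 and Aldh9a1 (0.991 to 0.992). Alox5ap was most like Ucp2, Hsd17b10 and Cuta (0.988 to 0.991), and Lta4h like Sec22c, Galk2 and Arhgap18 (0.994 to 0.995). The values of Alox5 beyond Mcpt8 were lower, 0.958 for Sept1 and 0.929 for Nfyc, and those of Ltc4s lowest, 0.833 to 0.848 for Carnmt1, Pde4a and Sirt4. These correlations describe 12 libraries in 4 groups that share scaling, and most of the spread lies between LPS-treated and untreated libraries.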
